A study of Mus musculus with 2 samples.

Results

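The Mir148 and Mir152 family consists of 3 mouse miRNA genes, Mir148a, Mir148b and Mir152. They were taken by gene name from the 1973 gene rows of each count table, and all 3 had a row with counts in both libraries. MicroRNA sequencing had been done on total RNA of liver from healthy B6NCrl mouse embryos at embryonic day 16.5. There was 1 group of 2 biological replicates and no contrast of genotype or treatment. Each replicate pooled the livers of male and female embryos. The pool of replicate 2 came from 41 embryos, no embryo number is labelled for replicate 1, and nothing ties the pools to single litters. P-values between the libraries therefore concern these 2 pools only.

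MicroRNAs are short RNAs cut from the 2 arms of a hairpin precursor. The arm that is loaded into an Argonaute protein pairs with messenger RNAs, mainly through its seed, bases 2 to 8, and represses them. The 3p arms of miR-148a, miR-148b and miR-152 share 1 seed, so they can pair with the same seed sites. Known targets of the family include the maintenance DNA methyltransferase Dnmt1. In liver, miR-148a is known as a hepatocyte-enriched miRNA that favours hepatocyte maturation.

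The mature 3p sequences are shown because they carry the shared seed, here in capitals, and because the bases after it decide whether a read can be assigned to 1 member. They are from RefSeq (GRCm38.p6), 5′ to 3′, and all 3 members were matched there.
miR-148a-3p: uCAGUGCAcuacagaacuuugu
miR-148b-3p: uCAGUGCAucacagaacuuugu
miR-152-3p: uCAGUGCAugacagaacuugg
The first 8 bases were identical in all 3, as were 18 of the 21 positions present in all of them. Counted from 1 at the 5′ end, miR-148a-3p and miR-148b-3p (22 bases each) differed by 2 substitutions, C9U and U10C. From miR-148a-3p to miR-152-3p (21 bases) there were 3 substitutions, C9U, U10G and U20G, and from miR-148b-3p to miR-152-3p there were 2, C10G and U20G. Among 1738 mature mouse miRNAs in the RefSeq table, these 3 were the only ones with CAGUGCA at bases 2 to 8.

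The hairpins are shown because the counts are made per hairpin gene and do not separate the arms. The 5p arm (first) and the 3p arm (second) are in capitals.
Mir148a: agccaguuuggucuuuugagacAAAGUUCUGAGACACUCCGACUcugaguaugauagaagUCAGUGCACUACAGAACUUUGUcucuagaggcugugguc
Mir148b: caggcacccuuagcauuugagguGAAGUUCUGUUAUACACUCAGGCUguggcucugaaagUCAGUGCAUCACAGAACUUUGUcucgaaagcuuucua
Mir152: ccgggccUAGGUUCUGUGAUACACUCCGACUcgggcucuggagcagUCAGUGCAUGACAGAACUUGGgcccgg
The 5p arms did not share 1 seed: it was AAGUUCU in miR-148a-5p and miR-148b-5p and AGGUUCU in miR-152-5p, a difference of A3G from the first to the second. The Mir148a and Mir148b hairpins were 99 and 97 bases long with a GC content of 45.5% and 45.4%, and the Mir152 hairpin was 73 bases long with 61.6%. The longest run of letters shared by 2 hairpins was 15 bases, between Mir148a and Mir148b. It was 12 bases between Mir148a and Mir152 and 11 between Mir148b and Mir152. No 18-base word of any member occurred in another listed gene. Each read of 18 bases or more without mismatches was thus specific to 1 member among the listed hairpins; matches elsewhere in the genome were not searched.

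The genes lie on 3 chromosomes of mm10. Mir148a (ENSMUSG00000065505.1, chromosome 6, 51269812 to 51269910, minus strand) had no annotated host gene on its strand. The nearest coding gene was 163 kb away. Mir148b (ENSMUSG00000065560.1; chromosome 15, 103285125 to 103285221, plus strand) lies in intron 1 of Copz1, 12411 bases from the start of that gene. Mir152 (ENSMUSG00000065515.1; chromosome 11, 96850393 to 96850465, plus strand) lies in intron 1 of Copz2, 523 bases from its start. Copz1 and Copz2 encode paralogous zeta subunits of the COPI coat, which forms transport vesicles at the Golgi. Both hairpins have the same strand as their host.

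The surroundings of the 3 hairpins held genes of the Nfe2 and Cbx families in the same order. These families were chosen after the annotation around the hairpins had been seen, so this is a description. Upstream of each hairpin lay in turn a gene of the Nfe2 family of transcription factors and a Cbx gene encoding a heterochromatin protein. For Mir148a these were Nfe2l3 at 163 kb and Cbx3 at 200.4 kb. For Mir148b they were Nfe2, whose product is an erythroid and megakaryocyte factor, at 26.7 kb and Cbx5 at 45.3 kb. For Mir152 they were Nfe2l1 at 20.4 kb and Cbx1 at 41.8 kb. A gene of the Hnrnpa family of RNA-binding proteins lay between the Nfe2 and Cbx genes at Mir148a (Hnrnpa2b1, 191 kb) and Mir148b (Hnrnpa1, 38.4 kb). None was annotated within 1500 kb of Mir152.

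**Figure D1:**
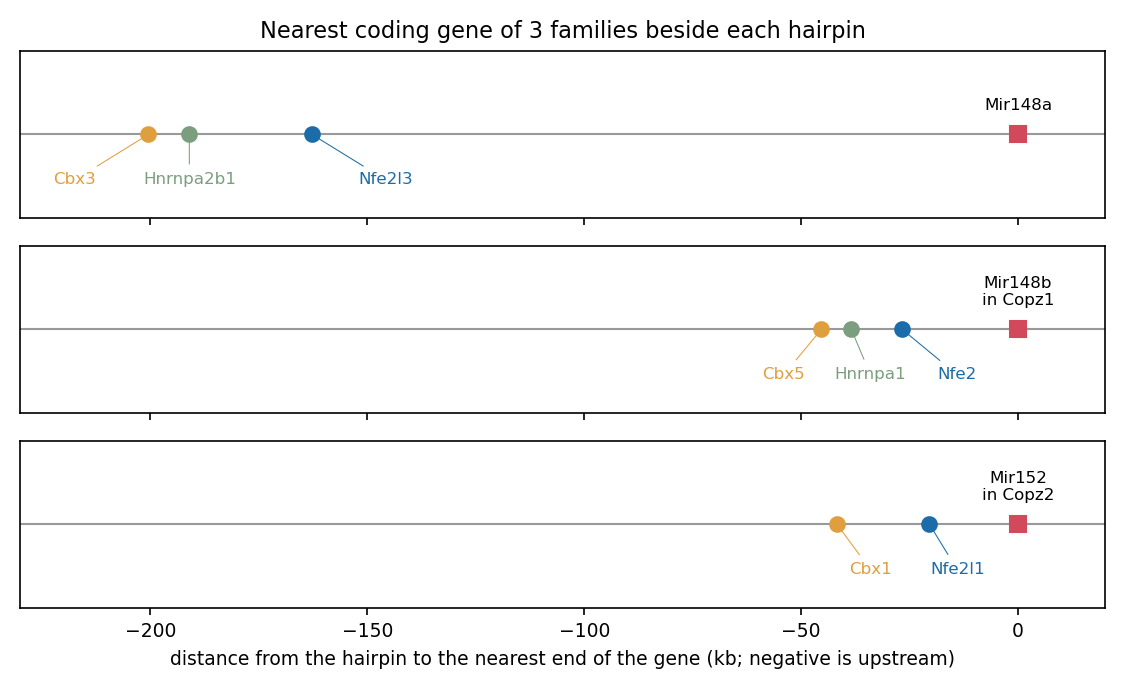
Map of the nearest coding gene of the Nfe2, Hnrnpa and Cbx families beside each hairpin. The horizontal axis is the distance in kb from the hairpin (square) to the nearest end of each gene (circle), with upstream negative; the Nfe2 gene is nearer than the Cbx gene in the 3 rows, an Hnrnpa gene lies between them at Mir148a and Mir148b but not at Mir152, and distances are longest at Mir148a.

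The libraries held 5930074 sense-strand miRNA counts in replicate 1 and 5102289 in replicate 2. Levels are given in CPM, counts scaled to a common library total, and 1 count is worth 0.169 and 0.196 CPM. Reads that mapped to several places made up 28.1% and 28.2% of all reads tallied and are in no gene count. Hepatocyte marker miRNAs (Mir122, Mir192 and Mir194-2) held 21.9% of the counts. The 5 neural marker genes with a row summed to 0.588 to 1.35 CPM, with 3 of them at 0 in both libraries. From 23.3% to 54.9% of the hairpin words of each of these 5 genes recur in other listed genes. Their counts lack multimapping reads, so these levels may be low and cannot show that neural cells were absent. Markers of erythroid, leukocyte, endothelial, mesenchymal and epithelial cells summed to between 0.532% and 4.70% of the counts per list. The libraries are of whole liver, so the cells in which the members are expressed were not resolved, and fewer cells of a type and less RNA per cell cannot be told apart.

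Mir148a, the hepatocyte-enriched member, was the most abundant of the family. It had 9313 counts in replicate 1 (1570.5 CPM; exact 95% Clopper-Pearson interval 1539 to 1603) and 7765 in replicate 2 (1522 CPM; 1488 to 1556), and its mean was 1546 ± 34.4 CPM (SD, n = 2). Both values were close together, and their intervals overlapped. By mean CPM it held rank 71 of the 1973 gene rows. It was among the 82 genes at 1000 CPM or more in both libraries.

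Mir148b, the Copz1-hosted member, was intermediate. It had 1762 counts in replicate 1 (297 CPM; 283 to 311) and 1344 in replicate 2 (263 CPM; 250 to 278), with a mean of 280.3 ± 23.8 CPM (SD, n = 2). Replicate 1 was the higher library, and the intervals did not overlap. It held rank 136 and was among the 177 genes at 100 CPM or more in both libraries.

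Mir152, the Copz2-hosted member, was the least abundant. It had 602 counts in replicate 1 (102 CPM; 93.6 to 109.96) and 447 in replicate 2 (87.6 CPM; 79.7 to 96.1), with a mean of 94.6 ± 9.83 CPM (SD, n = 2) and rank 188. Replicate 1 was again the higher library, with overlapping intervals. All these intervals hold counting error alone and no variation between pools. They also treat reads copied by PCR as if they were separate molecules. On the strand opposite the hairpins, Mir148a and Mir148b had 0 counts in either library and Mir152 had 1 and 2, at or below the 3 counts that a count of 0 allows.

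**Figure D2:**
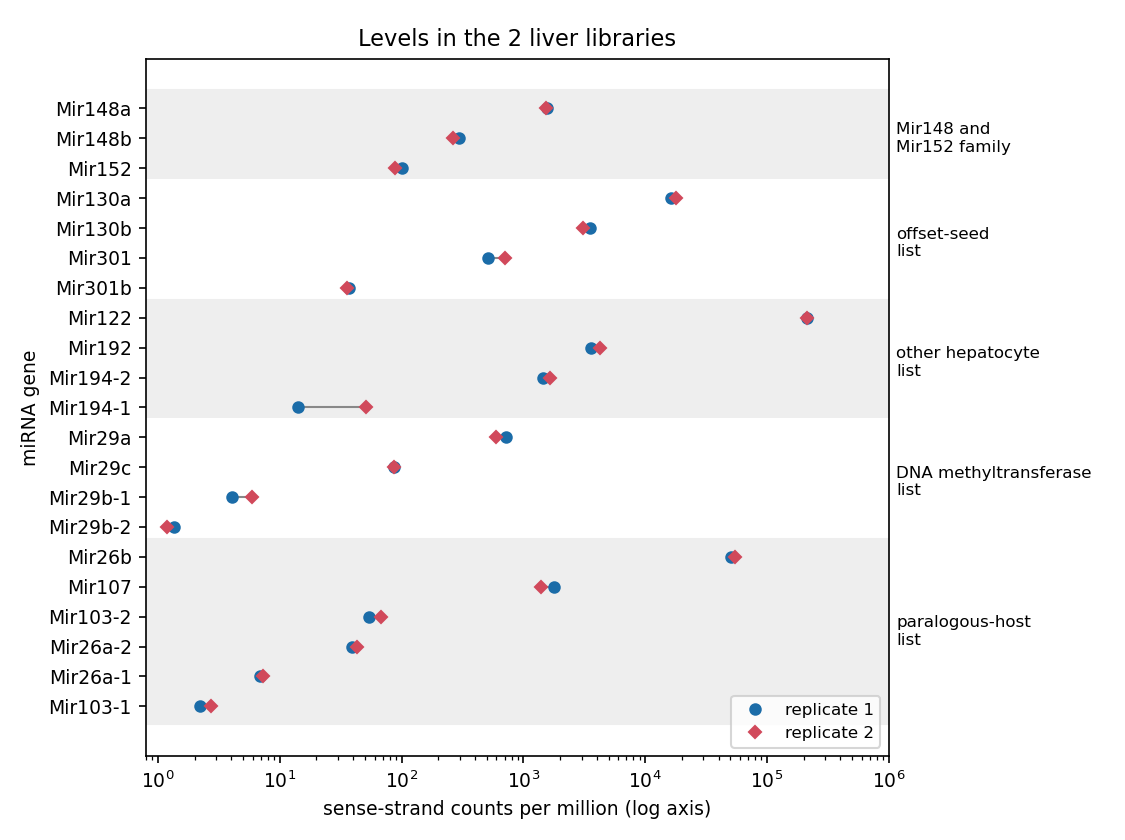
Sense-strand CPM (log axis) of the 3 family members and of the genes of 4 comparison lists, with a circle for replicate 1, a diamond for replicate 2 and a line joining them. The family members sit in the order Mir148a, Mir148b, Mir152 in both libraries, with gaps between members wider than the gap between replicates.

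The order Mir148a, Mir148b, Mir152 held in both libraries, and no ranges of neighbouring members overlapped. Mir148a exceeded Mir148b by 5.28-fold in replicate 1 (exact 95% interval 5.02 to 5.56) and by 5.78-fold in replicate 2 (5.45 to 6.13), a mean log2 ratio of 2.47 ± 0.09 (SD, n = 2). Mir148b exceeded Mir152 by 2.93-fold (2.67 to 3.22) and 3.004-fold (2.70 to 3.35), a mean log2 ratio of 1.57 ± 0.03. Both steps were much larger than the spread between replicates. From the top of the family to the bottom, Mir148a exceeded Mir152 by 15.5-fold and 17.4-fold (log2 4.03 ± 0.12). No p is given, because the smallest two-sided p of an exact sign-flip test over 2 libraries is 0.5. These are ratios of counts over mature miRNAs of nearly equal length, and no length scaling was applied; how counts relate to molecules was not tested.

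Within the family, most counts were those of Mir148a. Its share of the 11677 family counts in replicate 1 was 79.8% (79.01% to 80.5%), and of the 9556 in replicate 2 it was 81.3% (80.5% to 82.04%). Mir148b supplied 15.1% and 14.1%, and Mir152 supplied 5.16% and 4.68%. The counting intervals of each share overlapped between the libraries, those of Mir148a only at 80.5%. Overlap is not a test, and none was run on the shares. The sum of the 3 genes covers every gene found with this 3p seed among the mature miRNAs of RefSeq. It also holds any 5p reads, which carry other seeds. The sum came to 0.192% ± 0.007 of all sense-strand counts (0.197% in replicate 1 and 0.187% in replicate 2).

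**Figure D3:**
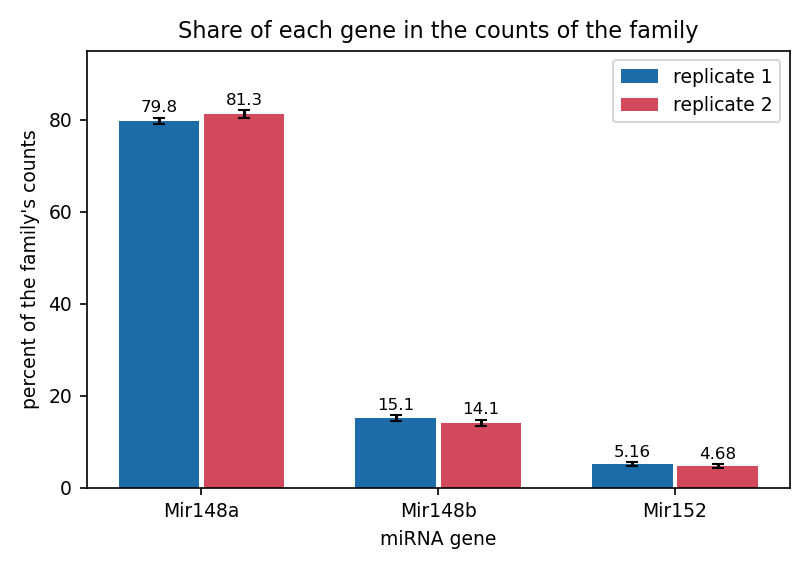
Percent of the family's sense-strand counts taken by each gene, with a bar for each replicate from 0 and error bars of the exact 95% binomial interval. Mir148a takes 79.8% and 81.3%, Mir148b 15.1% and 14.1%, and Mir152 5.16% and 4.68%.

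Scaled by library totals, the log2 ratio of replicate 2 over replicate 1 was below 0 for all 3 members and 2 of them passed the test, whereas with TMM or DESeq2 scaling that of Mir148a was above 0 and none passed. A two-sided exact binomial test against the library totals was run on the 440 genes that had at least 10 counts in all, with Benjamini-Hochberg adjustment over those genes. This test compares 2 libraries against counting error. Of those genes, 44.5% passed at 0.05 in either direction, and 27% passed as lower in replicate 2 (119 lower and 77 higher, or 97 and 98 with TMM or DESeq2 scaling); the 2 of 3 members are read against these shares, and nothing is called particular to the family.

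Mir148b was lower in replicate 2 by a log2 ratio of -0.17 (counting SE 0.05; 1.13-fold; exact binomial adjusted p = 0.0024). Mir152 was lower by -0.21 (counting SE 0.09; 1.16-fold; exact binomial adjusted p = 0.042). Mir148a, at a log2 ratio of -0.05 (counting SE 0.02; 1.03-fold; exact binomial adjusted p = 0.084), did not pass. The median log2 ratio of the members was -0.17, beside -0.08 over all genes tested. With TMM or DESeq2 scaling neither Mir148b (exact binomial adjusted p = 0.15 and 0.16) nor Mir152 (0.25 and 0.26) passed, and the ratio of Mir148a turned to 0.04. Without the count filter the exact binomial adjusted p of Mir152 was 0.065.

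Among all genes above a minimum level, many had larger ratios. Of 210 genes at a mean of 50 CPM or more, 180 had a larger absolute log2 ratio between the libraries than Mir148a, 121 a larger one than Mir148b and 96 a larger one than Mir152. The median absolute log2 ratio of those 210 genes was 0.20. The common biological coefficient of variation, estimated with edgeR over 440 genes in an intercept-only fit, was 22.9%. The epithelial and biliary markers (5 of 5 higher in replicate 2, where 17.5% of all genes tested passed as higher, from 4266 to 6376 CPM in sum, none at 0) and the intestine-enriched Mir215 (75 and 1920 counts) also differed between the pools, in the other direction. Other marker lists differed too. Of 3 erythroid genes, 1 passed as lower and 2 as higher in replicate 2, and the same held for 3 mesenchymal genes. All 3 hepatocyte genes, the 1 endothelial gene and 1 of 4 leukocyte genes passed as higher. Over all genes tested, 27% passed as lower and 17.5% as higher. The part of the cells behind these markers in the differences of the members was not tested.

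**Figure D4:**
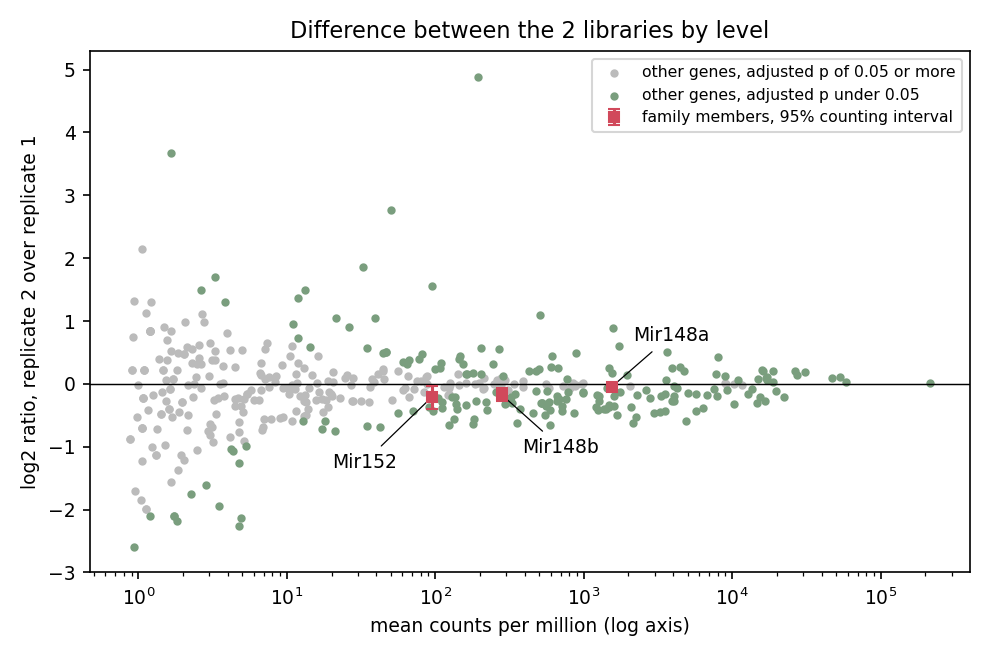
Log2 ratio of replicate 2 over replicate 1 against mean CPM (log axis) for the 440 genes tested; squares are the 3 family members with exact 95% counting intervals. The members lie at -0.05, -0.17 and -0.21, among the points of other genes; with TMM or DESeq2 scaling the value of Mir148a is 0.04.

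A neighbouring seed was supplied at a far higher level. The miR-130 and miR-301 miRNAs carry the same 7 letters CAGUGCA 1 base nearer their 5′ end, at bases 1 to 7, so that their own seed is AGUGCAA. Their 3p sequences from RefSeq are shown, seed in capitals, to set the shift beside the family. For miR-301b no mature entry was found there, so its seed was not checked.
miR-130a-3p: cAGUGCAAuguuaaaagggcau
miR-130b-3p: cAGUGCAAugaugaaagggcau
miR-301a-3p: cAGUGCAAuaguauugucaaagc
Mir130a, a miRNA of stem and progenitor blood cells and endothelium, was at 17114 ± 970.3 CPM, Mir130b at 3328 ± 302 CPM, Mir301 at 610.03 ± 133 CPM and Mir301b at 36.3 ± 0.891 CPM (SD, n = 2). Together they exceeded the family by 11.0-fold (log2 ratio of the family over them -3.38 in replicate 1 and -3.53 in replicate 2). Mir148a alone lay between Mir130b and Mir301, and its range overlapped neither. Between the libraries, 1 of these 4 genes was lower and 2 were higher in replicate 2 past the exact test, beside 27% lower and 17.5% higher over all genes tested, and their median log2 ratio was 0.03.

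Among the other miRNA genes listed for hepatocytes, Mir122 and Mir192 lay above Mir148a in counts and Mir194-1 lay below it. Mir122, the dominant hepatocyte miRNA, was at 213914 ± 906 CPM, and Mir192 was at 3917 ± 483 CPM. Mir194-2, which shares a transcript with Mir192, was at 1462 and 1654 CPM, on either side of both Mir148a values, so these 2 genes could not be ranked. Mir194-1, the other copy, was at 14.0 and 50.8 CPM. It has the same host gene, 2010103J01Rik, as the intestine-enriched Mir215. With these 4 genes summed, the list exceeded the family by 114-fold (log2 ratio of the family over the list -6.84 ± 0.06). All 4 were higher in replicate 2 past the exact test, with a median log2 ratio of 0.22. Of all genes tested, 17.5% passed in that direction. Mir122, which held most of the counts of the list, had a log2 ratio of only 0.0086. The sum of the list went from 218324 CPM in replicate 1 to 220517 CPM in replicate 2. For Mir194-1 and Mir194-2, 10% and 7.25% of the 18-base words recur in another listed gene, and their counts lack multimapping reads. Both levels may thus be low, and the place of Mir194-1 below Mir148a is uncertain.

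The miR-29 family is the other well-known group of miRNAs aimed at DNA methyltransferases, with Dnmt3a and Dnmt3b as targets. Mir29a was at 662 ± 87.8 CPM, Mir29c at 87.3 ± 0.0959 CPM, Mir29b-1 at 4.96 ± 1.30 CPM and Mir29b-2 at 1.26 ± 0.122 CPM (SD, n = 2). The Mir148 and Mir152 family exceeded their sum by 2.55-fold (log2 ratio 1.27 in replicate 1 and 1.43 in replicate 2). The margin comes from Mir148a: Mir29a exceeded Mir148b and Mir152, and the ranges of Mir29c (87.22 to 87.35 CPM) and Mir152 were separated by less than 1 CPM. For Mir29b-1, Mir29b-2 and Mir29c, 20.4%, 12.5% and 7.04% of the words recur in other listed genes, and these counts may be low. The sum of the miR-29 genes may then be low too, and the 2.55-fold excess over it too high. Of these 4 genes, 1 was lower in replicate 2 past the exact test, 0 were higher and the median log2 ratio was -0.09, beside 27% lower and 17.5% higher over all genes tested.

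Other families are, like Mir148b and Mir152, spread over introns of paralogous host genes, and the counts of their members also stood far apart. Among the miRNAs of the Ctdsp phosphatase genes, Mir26b in Ctdsp1 was at 53025 ± 2922 CPM, Mir26a-2 in Ctdsp2 at 41.05 ± 3.20 CPM and Mir26a-1 in Ctdspl at 7.08 ± 0.239 CPM. Among those of the pantothenate kinase genes, Mir107 in Pank1 was at 1587 ± 276 CPM, Mir103-2 in Pank2 at 60.9 ± 10.3 CPM and Mir103-1 in Pank3 at 2.47 ± 0.390 CPM. The 2.96-fold step from Mir152 to Mir148b, taken from the mean log2 ratio, was smaller than either spread. Mir26b shares no 18-base word with another listed gene. The other 5 of these 6 genes share 11.0% to 31.9% of theirs. Reads from shared stretches may map to several places and are then in no gene count. The levels of these 5 genes are thus uncertain and may be low. The size of these gaps, and how the 2.96-fold step compares with them, is uncertain as well. Of the 6, 1 was lower and 2 were higher in replicate 2 past the exact test, with a median log2 ratio of 0.14; over all genes tested, 27% were lower and 17.5% higher.

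The genes nearest to each member in level were found by the distance between the pairs of log2 CPM values of the 2 libraries. For Mir148a they were Mir543 (distance 0.119), Mir1983 (0.157) and Mir194-2 (0.158). For Mir148b they were Mir377 (0.112), Mir679 (0.13) and Mir181a-1 (0.149). For Mir152 they were Mir199b (0.016), Mir574 (0.141) and Mir666 (0.157). Mir199b had the same 602 counts as Mir152 in replicate 1 and 452 against 447 in replicate 2, but 14.0% of its words occur in another listed gene. The same holds for 15.7% of the words of Mir181a-1 and 7.25% of those of Mir194-2. The levels of Mir199b, Mir181a-1 and Mir194-2 may thus be low. Likeness over 2 libraries describes level only.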

How the data were processed

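Raw counts per miRNA gene were deposited by the authors for each library, on assembly mm10 with GENCODE annotation M4 per the deposited text descriptions. No aligner or counting program is named in the sources used here. The tables have 1973 gene rows and 4 tally rows, with 3 count columns. Column 3 of the file, the strand with the larger total, was used as the sense count, and CPM were computed over all gene rows. The replicate number and group come from the description label. Names, coordinates and hosts came from GENCODE M21 by versionless identifier: 1894 rows matched, and the other 79 held 1 count in all. Sequences came from RefSeq (GRCm38.p6).

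The members and all lists were chosen with earlier results of these data known. Genes named were the members, all genes of the 4 lists, the marker lists and the 3 nearest genes in level of each member. Ratios of single genes used a pseudocount of 0.5. The quasi-likelihood test of edgeR 4.0.16 (R 4.3.3) was not fitted, since 1 group has no contrast, and an exact binomial test (scipy 1.17.1) was used. It was checked on simulated counts. Alternatives covered strand, totals, TMM, DESeq2 1.42.0 scaling, count filters, pseudocounts and each replicate left out. Of the markers, Mir9-1 has no row of its own.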

Additional observations from a re-analysis of the deposited data

Results flagged for a closer look

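Among the family members and the 4 comparison lists, 1 gene had counts on the strand that was not used, above the 3 counts that a count of 0 allows in both libraries. Opposite Mir130a there were 86 counts in replicate 1 and 70 in replicate 2, or 0.0883% and 0.0771% of its sense-strand counts.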

How the results depend on the processing

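The order of the members held under every setting run. Irrespective of strand, Mir148a was at 1419.8 CPM, the family held 0.176% and the ranks of Mir148a, Mir148b and Mir152 were 79, 144 and 198. Over a total without Mir122, the members were at 1967, 357 and 120.3 CPM and the family held 0.244%. Over all reads tallied, they were at 648, 117 and 39.6 CPM and the family held 0.0805%. With either replicate left out, the rank of Mir148a was 69 to 71, that of Mir148b 134 to 141 and that of Mir152 183 to 192. Between the libraries, the log2 ratio of Mir148a was 0.036 with TMM and 0.037 with DESeq2 scaling. That of Mir148b was -0.093 and -0.091, and that of Mir152 was -0.131 and -0.130, none past the exact test. Without the count filter, that of Mir152 was -0.21 and did not pass. These scalings also moved the split of called genes from 119 lower and 77 higher in replicate 2 to 97 lower and 98 higher. Without genes sharing any word, the log2 ratio of the family over the miR-29 list was 1.54; only Mir29a is left in that list. The cause of the other changes was not tested. No paired analysis was possible because there is 1 group. Depth limits Mir152 most, with 447 counts in replicate 2.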

Other observations

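The nearest miRNA gene with 10 or more counts lay far from each member, so none of the 3 belonged to a detected cluster. For Mir148a it was Mir196b, 960.2 kb away, with 2162 and 1508 counts. For Mir148b it was Mir615, 270.1 kb away, with 254 and 137 counts. For Mir152 it was Mir10a, 533 kb away, which at 4069 CPM was 43.0-fold above Mir152.

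Of the genes whose mature miRNA carries CAGUGCA at bases 1 to 7 in RefSeq, Mir130c, Mir6341 and Mir6389 had 0 counts in both libraries. This allows up to 0.506 CPM in replicate 1 and 0.588 CPM in replicate 2. Mir721 carries these letters as well but has no row of its own, so no level can be given for it.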
